A study of Mus musculus with 20 samples.

Results

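The 7 wild-type mesotheliomas of this series carry 2 kinds of label, and the tumours of each label were set against those of the other. The set called WT_Dmt1 here holds the 4 tumours labelled Wild type(Dmt1), and the set called WT_plain holds the 3 labelled Wild type or, on 2 of them, Wile type. They are 7 of the 20 tumours in the series, each measured on 1 array, and the labels alone put each tumour in its set. All mice were given crocidolite, an iron-rich asbestos, by intraperitoneal injection of 1.5 mg at 6 weeks and again at 7 weeks of age, 3 mg in total, and were then watched for 600 to 700 days. The other groups used below, also given crocidolite, are 4 tumours labelled Dmt1Tg and 9 labelled MutyhKO, Ogg1KO or Mth1KO (3 each). No promoter, background line or litter is stated in the labels for any group, and C57BL/6 is given for the kidney alone. The labels do not say whether each tumour came from its own mouse, so p-values reflect how far single arrays of a group differ. The fits of genes and bins take this spread from all 6 groups of the 20 arrays, not from the wild-type sets alone.

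Malignant mesothelioma is a cancer of the lining of the body cavities that follows exposure to asbestos fibres. Array comparative genomic hybridisation reads gains and losses of DNA by labelling tumour DNA and normal DNA with different dyes and letting them compete for the same probes. Here tumour DNA carried Cy5 and DNA of non-neoplastic kidney, of the same genotype per the labels, carried Cy3. A log2 ratio above 0 therefore means relatively more tumour signal at that probe, and the centre of the autosomes was set to 0 on every array. DNA holds no tissue markers, so the labelled tumour type could not be checked against marker genes. In bulk tumour DNA, a change in few cells and a small change in many cells cannot be told apart. Only autosomes were compared.

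The sets also differ in how they were run. WT_Dmt1 filled slide 1, scanned on day 1, and WT_plain lay on slide 3, scanned on day 2, beside MutyhKO 1. Set, slide and scan day therefore cannot be told apart in any difference between the sets. The spread between neighbouring probes was 0.368 to 0.535 log2 units on WT_Dmt1 arrays and 0.284 to 0.378 on WT_plain arrays. In the kidney channel, 83.5% to 93.8% of spots cleared the background well on WT_Dmt1 arrays and 75.8% to 82.0% on WT_plain arrays. Patches of the array surface with low ratios, holding 7.18% of the spots on WT_plain 1 and 4.76% on WT_plain 2, were left out.

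Probes of 60 bases or slightly fewer carry every value given here. The probes shown are those whose difference between the sets lies nearest that of their gene, for 4 genes with the largest differences in each direction. They are printed 5′ to 3′ as deposited, with G and C in capitals because the base composition of probes is taken up below. The first 4 belong to genes with higher ratios in WT_Dmt1.
Bahcc1 (mm9 chr11:120131237-120131296): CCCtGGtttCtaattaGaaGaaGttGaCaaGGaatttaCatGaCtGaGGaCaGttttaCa
Rap1gap (mm9 chr4:137274428-137274487): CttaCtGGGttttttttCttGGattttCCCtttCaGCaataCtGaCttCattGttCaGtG
Hdac7 (mm9 chr15:97637427-97637484): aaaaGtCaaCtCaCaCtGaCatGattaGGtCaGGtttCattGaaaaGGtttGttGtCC
Cbfa2t3 (mm9 chr8:125163724-125163783): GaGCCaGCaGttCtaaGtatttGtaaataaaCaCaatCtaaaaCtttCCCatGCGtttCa
The next 4 belong to genes with lower ratios in WT_Dmt1.
Skint3 (mm9 chr4:111962345-111962404): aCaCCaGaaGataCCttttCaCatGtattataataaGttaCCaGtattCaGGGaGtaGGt
Hgf (mm9 chr5:16124867-16124926): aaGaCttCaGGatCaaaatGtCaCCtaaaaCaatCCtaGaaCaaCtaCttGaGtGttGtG
Fgf10 (mm9 chr13:119510724-119510783): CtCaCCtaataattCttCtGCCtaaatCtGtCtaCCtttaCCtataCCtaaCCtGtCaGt
Btbd10 (mm9 chr7:120484442-120484501): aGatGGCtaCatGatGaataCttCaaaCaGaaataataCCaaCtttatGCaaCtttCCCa
Their content of G and C runs from 33.3% (Btbd10) to 38.3% (Fgf10). The median over autosomal probes was 36.7%, so the probes of either direction sit near it. The probe in Hdac7 read 0.83, 0.91, 0.35 and 0.33 on WT_Dmt1 1 to 4 and -0.11, -0.65 and -0.55 on WT_plain 1 to 3. The probe in Skint3 read -0.59, 0.34, 0.22 and -0.03 on WT_Dmt1 1 to 4 and 0.86, 1.31 and 1.37 on WT_plain 1 to 3. At each of these 2 probes the sets did not overlap. They did overlap at the probe in Rap1gap (0.15 on WT_Dmt1 2, 0.38 on WT_plain 1). The probe in Hgf overlapped too (0.24 on WT_Dmt1 1, 0.18 on WT_plain 1). Non-overlap of the gene means was part of the rule that chose these genes.

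The first question was how many genes differ between sets that carry the same genotype label. Of 8612 autosomal genes with at least 3 probes on every array, limma called 2415 (28.0%) at an adjusted p under 0.05. Of these, 1761 (20.4%) were higher and 654 (7.59%) lower in WT_Dmt1, and 3477 genes had an unadjusted p under 0.05. The median difference over all genes was 0.07, and from the 5th to the 95th percentile differences ran from -0.28 to 0.59. Every WT_Dmt1 array stood above every WT_plain array at 1926 genes (22.4%), of which 1522 (17.7% of all) were also called higher. Every WT_Dmt1 array stood below at 885 genes (10.3%), of which 557 (6.47%) were also called lower. Without WT_plain 2 the count of calls was 1504, and with WT_plain 3 as the only array of its set, which removes both arrays with patches, it was 634, of which 607 were among the 2415 with the same direction.

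The 8 genes named for the largest higher ratios in WT_Dmt1, at most 1 per chromosome, were mostly negative in WT_plain and positive in WT_Dmt1. Bahcc1 encodes a chromatin protein with a BAH domain (mm9 chr11:120102146-120151907, 6 probes). It read 0.12, 0.25, 0.61 and 0.13 on WT_Dmt1 1 to 4 and -0.51, -1.02 and -1.24 on WT_plain 1 to 3. The difference was 1.20 (SE 0.19, limma adjusted p = 0.000335), and what differed most was the depth of the negative ratios in WT_plain.
Hdac7, a class IIa histone deacetylase gene (mm9 chr15:97629616-97665702, 5 probes), read 0.25, 0.41, 0.09 and -0.04 on WT_Dmt1 1 to 4 and -0.87, -0.99 and -0.99 on WT_plain 1 to 3. The difference was 1.13 (SE 0.13, limma adjusted p = 5.50e-05). The WT_plain arrays lay close together (SD 0.07) and below all WT_Dmt1 arrays.
Rap1gap, whose product switches off the small GTPase Rap1, read 0.84, 0.71, 0.71 and 0.21 on WT_Dmt1 1 to 4 and 0.05, -0.46 and -1.13 on WT_plain 1 to 3. Its difference was 1.13 (SE 0.24, limma adjusted p = 0.00235), with the WT_plain arrays spread widely (SD 0.59).
Cbfa2t3, a transcriptional corepressor gene, stood at 0.69 ± 0.17 (SD, n = 4) in WT_Dmt1 and -0.41 ± 0.24 (SD, n = 3) in WT_plain. The cell adhesion gene Nectin1 stood at 0.46 ± 0.12 against -0.48 ± 0.23. Their differences were 1.1 and 0.94 (limma adjusted p = 0.000174 and 0.00111). Camk2a, a calcium-dependent protein kinase gene, had the tightest sets of the 8. It read 0.62, 0.73, 0.61 and 0.60 on WT_Dmt1 1 to 4 against -0.30, -0.23 and -0.31 on WT_plain 1 to 3. The sets differed by 0.92 (SE 0.11, limma adjusted p = 5.50e-05). Loxl2 is taken up with its stretch of chromosome 14 below.

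The largest lower ratios in WT_Dmt1 began with Skint3, described with its neighbours below, and the others were smaller. Hgf encodes the ligand of the receptor Met (mm9 chr5:16062948-16124926, 7 probes). It read -0.32, -0.19, -0.20 and 0.04 on WT_Dmt1 1 to 4 and 0.52, 0.42 and 0.40 on WT_plain 1 to 3. The sets differed by -0.61 (SE 0.09, limma adjusted p = 0.000212). With the spots of the patches kept, this call was lost.
Fgf10, a fibroblast growth factor gene (mm9 chr13:119510724-119570650, 7 probes), read -0.23, -0.40, -0.37 and -0.16 on WT_Dmt1 1 to 4 and 0.26, 0.23 and 0.26 on WT_plain 1 to 3. The difference was -0.54 (SE 0.08, limma adjusted p = 0.000291), and every WT_Dmt1 array was below 0 and every WT_plain array above it. Chrm2, a muscarinic acetylcholine receptor gene with 14 probes, differed by -0.46 (SE 0.08, limma adjusted p = 0.001), from 0.38 ± 0.08 (SD, n = 3) in WT_plain to -0.07 ± 0.09 (SD, n = 4) in WT_Dmt1.
Btbd10, Ptbp2, Phip and Rmst complete the list, at differences of -0.53, -0.52, -0.50 and -0.48 (limma adjusted p = 0.00121 to 0.00368). Ptbp2 encodes a splicing regulator of neurons and Rmst a long non-coding RNA. With normexp background correction, an alternative start from the raw signals, the calls of Btbd10, Ptbp2, Rmst and Chrm2 were lost. Over all genes 1852 were then called higher and 385 lower, against 1761 and 654.

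**Figure D1:**
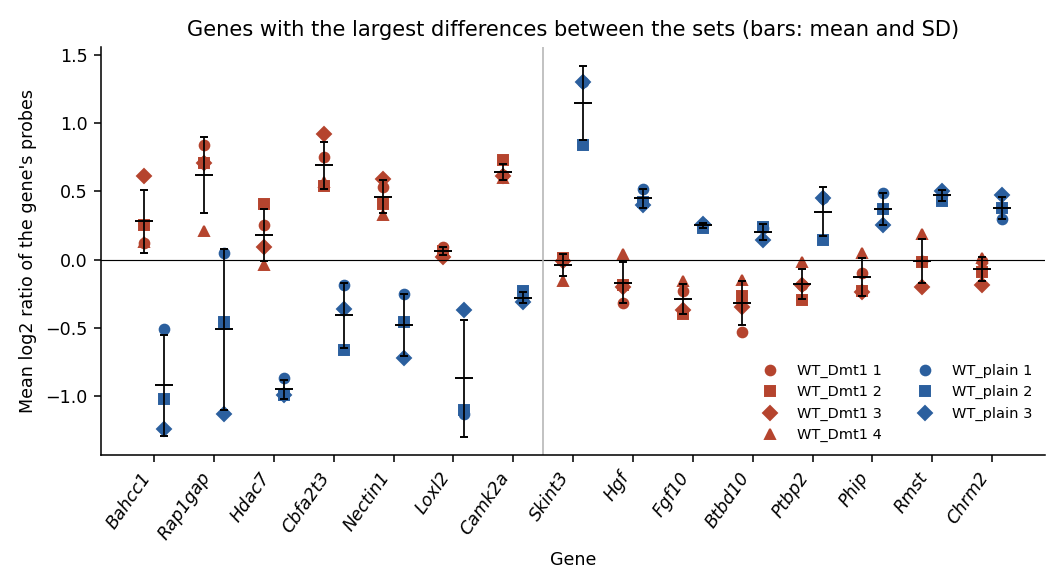
Mean log2 ratio, tumour over kidney, of the probes of 7 of the 8 genes with the largest higher and the 8 with the largest lower ratios in WT_Dmt1, 1 point per array, with the mean and SD of each set (WT_Dmt1, n = 4; WT_plain, n = 3). The sets do not overlap at any of these genes, which was part of the rule that chose them; Hdac7 lies at -0.87 to -0.99 on the 3 WT_plain arrays and at -0.04 to 0.41 on the 4 WT_Dmt1 arrays.

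Of 22 listed tumour suppressors of mesothelioma, 17 had an autosomal probe and 13 were tested, of which 1 was higher and 0 lower in WT_Dmt1 (median difference 0.05, against 0.07 over all genes), beside 20.4% higher and 7.59% lower over all genes. With normexp, another background correction, 4 were higher and 0 lower, and with each array centred within classes of gene density, an alternative added after the data were seen, 1 was higher and 1 lower. The 1 call was Lats2, a kinase of the Hippo pathway that restrains Yap1. It read -0.10, 0.24, -0.06 and -0.25 on WT_Dmt1 1 to 4 and -0.44, -0.50 and -0.33 on WT_plain 1 to 3. The sets differed by 0.38 (SE 0.11, limma adjusted p = 0.0177). The call was lost without WT_plain 2 (0.34, adjusted p = 0.0743) and without WT_Dmt1 2.
Nf2, which encodes the Hippo regulator merlin, differed by 0.05 (SE 0.11, limma adjusted p = 0.773). Its direction turned under some alternatives. Rb1, the retinoblastoma gene, differed by 0.01 (SE 0.11), Tsc1 by 0.05 (SE 0.07), Tsc2 by 0.11 (SE 0.17), Nf1 by -0.09 (SE 0.07) and Wt1, a mesothelial transcription factor, by -0.05 (SE 0.08), all with limma adjusted p from 0.312 to 0.969. Pbrm1 and Setd2, chromatin genes, differed by 0.22 (SE 0.12) and -0.08 (SE 0.09), Ptch1, a hedgehog receptor, by 0.20 (SE 0.10), and Fhit, which spans a fragile site, by -0.11 (SE 0.06). None of these 4 passed the test (limma adjusted p = 0.17, 0.483, 0.126 and 0.18).
Trp53, Lats1, Rassf1 and Cdkn2a had fewer than 3 probes left on some array and were not tested. Trp53 read 0.28, -0.10, -0.48 and -0.60 on WT_Dmt1 1 to 4 and -0.72, -0.78 and -0.73 on WT_plain 1 to 3. Cdkn2a and its neighbour Mtap turn on 1 tumour and are described below.

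Of 16 growth-promoting genes tested, 5 were higher and 0 lower in WT_Dmt1, beside 20.4% higher and 7.59% lower over all genes, with a median of 0.14 against 0.07. With density classes centred 3 were higher and 1 lower, and 2 and 0 with slide as a random block, which lets arrays of 1 slide deviate together. The receptor tyrosine kinase gene Pdgfra read 0.31, 0.51, 0.28 and 0.43 on WT_Dmt1 1 to 4 and -0.41, 0.02 and -0.01 on WT_plain 1 to 3. WT_Dmt1 was 0.51 higher (SE 0.10, limma adjusted p = 0.00108). Its neighbour in family and place, Kit, was 0.39 higher (SE 0.09, limma adjusted p = 0.00576), at 0.49 to 0.74 in WT_Dmt1 and 0.10 to 0.33 in WT_plain. Taken as the median of its probes, Kit differed by 0.11 (limma adjusted p = 0.335). Kit and Pdgfra were thus above 0 on every WT_Dmt1 array. Fgfr1 and Igf1r, further receptor kinase genes, were 0.40 and 0.25 higher (limma adjusted p = 0.0229 and 0.0321), and the Fgfr1 call was lost without WT_Dmt1 1, WT_plain 2 or WT_plain 3. With WT_plain 3 as the only array of its set, 1 of the 16 was called higher.
Of 17 Hippo pathway genes tested, 6 were higher and 0 lower, beside 20.4% higher and 7.59% lower over all genes, with a median of 0.22. Without WT_plain 2, and with WT_plain 3 as the only array of its set, 2 were higher, and with density classes centred the median was 0.06. Yap1, the co-activator that the pathway restrains, read 0.88, 0.27, 0.27 and 0.16 on WT_Dmt1 1 to 4 and -0.09, -0.15 and -0.17 on WT_plain 1 to 3 (difference 0.53, SE 0.16, limma adjusted p = 0.0202). WT_Dmt1 1 stood apart there, and the call was lost without it, without WT_plain 2 and without WT_plain 3. Wwc1, an upstream activator, was 0.48 higher (SE 0.07, limma adjusted p = 0.00019), at -0.13 to 0.04 in WT_Dmt1 and -0.59 to -0.42 in WT_plain. Its 16 probes showed the difference with every wild-type array left out in turn. Taok3, a kinase of the pathway, was 0.43 higher (limma adjusted p = 0.00277) and Vgll4, which competes with Yap1, 0.49 (limma adjusted p = 0.0123), the latter not without WT_plain 2. As the median of its probes Taok3 differed by 0.17 (limma adjusted p = 0.178). Another of the 6, Amotl1, was 0.40 higher (limma adjusted p = 0.0142). Amotl1 lies in a stretch of chromosome 9 that was low in WT_plain 2 alone, described below. The part of that stretch in the call was not tested.

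Iron handling was examined because crocidolite carries iron. Of 10 genes tested, 4 were higher and 0 lower in WT_Dmt1 (median 0.29), beside 20.4% higher and 7.59% lower over all genes. Aco1, which encodes the iron-sensing protein IRP1, read -0.19, 0.02, 0.10 and -0.01 on WT_Dmt1 1 to 4 and -0.35, -0.73 and -0.59 on WT_plain 1 to 3. The sets differed by 0.54 (SE 0.11, limma adjusted p = 0.00201). Slc39a14, a metal importer gene, was also 0.54 higher (SE 0.12, limma adjusted p = 0.00426), and Trf, which encodes transferrin, 0.44 (SE 0.12, limma adjusted p = 0.00868). The fourth, Slc25a37, belongs to the stretch of chromosome 14 below. Slc11a2, the gene of Dmt1 itself, had 1 probe left on some array and was not tested; it read -0.64 to -0.20 on WT_Dmt1 and -1.28 to -1.09 on WT_plain arrays.
Of 20 base excision repair genes with an autosomal probe 4 could be tested. Against a background of 20.4% higher and 7.59% lower over all genes, 2 of the 4 were higher, Lig3 (0.46, limma adjusted p = 0.00959) and Xrcc1 (0.36, limma adjusted p = 0.0351), which act together in sealing nicks. The call of Xrcc1 was lost without any 1 of WT_Dmt1 1, 2 or 3 or WT_plain 2 or 3, and with density classes centred 0 of the 4 were called. Of 20 double-strand break repair genes, 2 were higher and 4 lower, with a median of 0.02. This split depended on the scaling, at 2 higher and 0 lower with normexp, 0 and 5 with density classes centred, 2 and 1 centred on the mode, and it was 0 and 1 with slide as a random block. The checkpoint kinase gene Atr was 0.33 log2 units lower, at -0.35 to -0.11 in WT_Dmt1 and 0.10 to 0.16 in WT_plain (SE 0.07, limma adjusted p = 0.00325). Rad50, Wrn and Xrcc4 were 0.24, 0.21 and 0.15 units lower, and Xrcc6 and Brca1 0.39 and 0.21 units higher. The calls of Rad50, Wrn, Xrcc4 and Xrcc6 were each lost without at least 1 of the wild-type arrays. Mutyh and Ogg1, with 2 and 1 probes, were not tested, and their sets overlapped.

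Very long genes at fragile sites, which break when replication is slowed, were called in the opposite direction. Of 28 tested, 14 were lower and 0 higher in WT_Dmt1, with a median of -0.16 beside 0.07 over all genes. The shares called lower were 7.59% over all genes and 37.9% over genes longer than 500 kb. Lrp1b, a lipoprotein receptor family gene with 203 probes (mm9 chr2:40459693-42506541), read 0.01, 0.02, -0.01 and 0.13 on WT_Dmt1 1 to 4 and 0.31, 0.34 and 0.31 on WT_plain 1 to 3. The difference was -0.28 (SE 0.05, limma adjusted p = 0.001). In Lrp1b WT_Dmt1 lay near 0 and the positive ratio was that of WT_plain. With density classes centred, 0 of the 28 were lower and 1 was higher, with a median of -0.03. With WT_plain 3 as the only array of its set 2 were lower, and 8 with slide as a random block or without WT_plain 2.
Other families held calls in both directions. Of 29 collagen genes tested, 9 were higher and 4 lower in WT_Dmt1, beside 20.4% higher and 7.59% lower over all genes. With density classes centred 5 were higher and 4 lower, with a median of 0.00. Col7a1, the anchoring fibril collagen, was 0.97 higher (SE 0.23, limma adjusted p = 0.00454), at 0.35 to 0.85 in WT_Dmt1 and -0.64 to -0.13 in WT_plain. Col4a1 and its neighbour Col4a2, of basement membranes, were 0.49 and 0.42 higher. The fibrillar collagen genes Col1a2, Col3a1, Col5a2 and Col11a1 were 0.36, 0.35, 0.37 and 0.30 log2 units lower (limma adjusted p = 0.00158, 0.00425, 0.00158 and 0.015). Igf1r, Amotl1 and Brca1 above and Col4a2, Col1a2, Col3a1, Col5a2 and Col11a1 here were named after their values were seen. Of 24 cadherin and protocadherin genes, 5 were higher and 6 lower, and with density classes centred 1 and 0.
Histone deacetylases and sirtuins had 4 of 7 higher and 0 lower (median 0.30), beside 20.4% higher and 7.59% lower over all genes. Of the 4, Sirt5 lost its call with slide as a random block (0.28, limma adjusted p = 0.0997) and without WT_Dmt1 1 or any 1 of the WT_plain arrays. Sirt2 lost its call with density classes centred (0.26, limma adjusted p = 0.226) and without WT_Dmt1 1 or 3 or WT_plain 2 or 3. Without WT_plain 2, 2 of the 7 were called higher. After Hdac7 came Hdac5, a gene of the same class, which stood at -0.24 ± 0.10 (SD, n = 4) in WT_Dmt1 and -1.11 ± 0.22 (SD, n = 3) in WT_plain (difference 0.87, SE 0.13, limma adjusted p = 0.000264). Of 3 homeobox cluster genes tested, Hoxb3 and Hoxa3 were higher by 0.76 and 0.56 (limma adjusted p = 0.0017 and 0.0023). Hoxa3 was negative on every wild-type array, at -1.12 to -0.65 in WT_Dmt1 and -1.45 to -1.35 in WT_plain. Of 7 amino acid transporter genes of the SLC38 family, 2 were higher and 0 lower, beside 20.4% higher and 7.59% lower over all genes. One of them, Slc38a10 (0.47, limma adjusted p = 0.0491), lost its call centred on the mode and with slide as a random block. Its call was also lost without WT_Dmt1 1 or 3 or any 1 of the WT_plain arrays. Slc38a8, with 3 probes, read 1.01, 1.53, 1.91 and 1.84 on WT_Dmt1 1 to 4 and 0.15, -0.44 and -1.32 on WT_plain 1 to 3. The Dmt1Tg arrays stood at 0.56 ± 0.22 (SD, n = 4) and the knockout arrays at -0.42 ± 0.56 (SD, n = 9). Of 4 mesothelial marker genes 1 was higher, Calb2 by 0.41, a call lost without any 1 of 5 wild-type arrays. Of 28 vomeronasal receptor genes 1 was lower, Vmn2r93 by 0.45, a call lost without any 1 of 6. The balance of this list turned with the scaling, at 5 higher and 0 lower with normexp and 0 and 4 with density classes centred. Neither of 2 olfactory receptor genes was called, and the antigen receptor loci had no probe of their own name among those used.

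Called genes differed in length and surroundings by direction, with overlap. Genes higher in WT_Dmt1 had a median length of 51.2 kb and a median of 15.5 gene names per Mb around them. Genes lower in WT_Dmt1 had medians of 129.2 kb and 5.7, and uncalled genes 65.4 kb and 9.7. Lengths are those of the RefSeq gene table for GRCm38.p6, matched by symbol for 1534, 482 and 5124 genes. Among genes under 50 kb, 27.7% were higher and 3.0% lower in WT_Dmt1. Among those over 500 kb, 0.5% were higher and 37.9% lower. The share of genes called higher thus fell with length while that called lower rose.
The same held by density. Of 1150 genes with over 20 gene names per Mb, 501 (43.6%) were higher and 6 (0.5%) lower in WT_Dmt1, and the median difference was 0.29. Of 200 genes with 2 or fewer, 1 (0.5%) was higher and 98 (49.0%) lower, and the median difference was -0.20. Genes of 5 to 10 names per Mb had a median difference of 0.00, with 12.6% higher and 8.2% lower. With each array centred within density classes, 1028 genes were higher and 628 lower, and 1282 of the 2415 calls remained with their direction. Skint3, Hdac7, Bahcc1 and Wwc1 were among those that remained, at differences of -1.17, 0.98, 0.91 and 0.59.

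Bins of 1 Mb show which set carries the pattern. In the 115 bins without a gene name the median log2 ratio was 0.04, 0.09, 0.04 and 0.07 on WT_Dmt1 1 to 4 and 0.24, 0.26 and 0.28 on WT_plain 1 to 3. In the 223 bins with over 20 gene names it was 0.03, -0.06, -0.03 and -0.14 on WT_Dmt1 1 to 4 and -0.29, -0.39 and -0.36 on WT_plain 1 to 3. The WT_plain arrays fell steeply from gene-empty to gene-rich bins, and the WT_Dmt1 arrays fell little or, on WT_Dmt1 1, hardly at all.
Taken per array as the gene-rich minus the gene-empty median, the drop was -0.53, -0.64 and -0.64 on WT_plain 1 to 3 and -0.16, -0.06 and -0.20 on WT_Dmt1 2, 3 and 4. The sets did not overlap. Among the other arrays it was -0.27 to -0.17 on the 4 Dmt1Tg arrays, which share the scan day of WT_Dmt1, and -0.60 to -0.33 on the 9 knockout arrays, which share that of WT_plain. MutyhKO 1, on the slide of WT_plain, stood at -0.42, beside -0.43 and -0.42 on MutyhKO 2 and 3 of another slide. Their part in the difference between the sets was not tested.

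**Figure D2:**
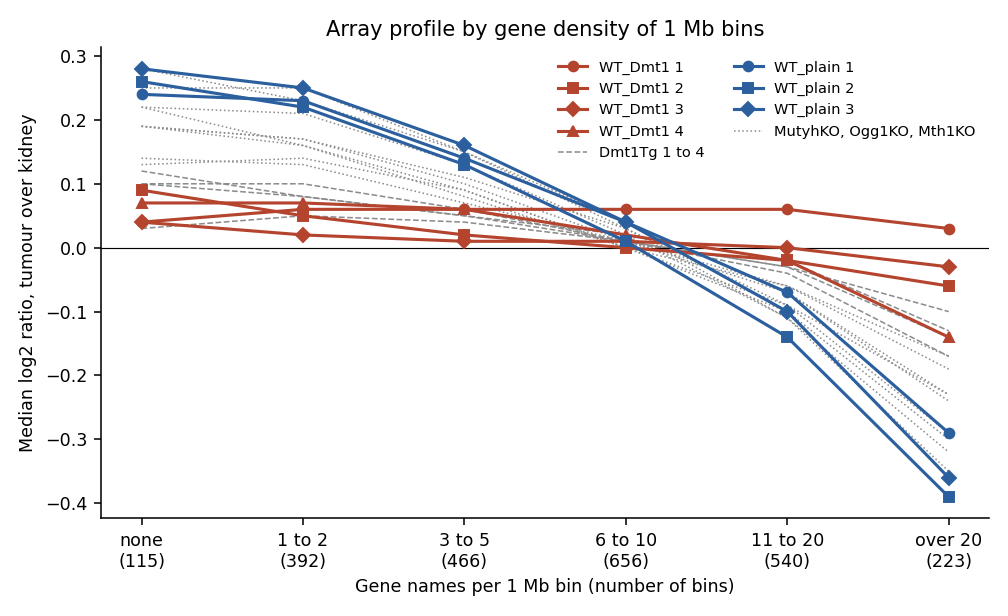
Median log2 ratio, tumour over kidney, of 1 Mb autosomal bins in 6 classes of gene names per bin (number of bins in parentheses), 1 line per array, with WT_Dmt1 in red, WT_plain in blue, Dmt1Tg dashed grey and the 9 knockout arrays dotted grey. WT_plain arrays go from 0.24 to 0.28 in gene-empty bins down to -0.29 to -0.39 in the richest class, and WT_Dmt1 arrays from 0.04 to 0.09 down to -0.14 to 0.03.

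Arrays outside the wild-type sets give values that share no sample with this comparison. Of the 1761 genes higher in WT_Dmt1, 1542 (87.6%) were also higher in Dmt1Tg than in the mean of the knockouts, against 54.9% of all 8612 genes. Of the 654 lower genes, 65 (9.9%) were. At the adjusted p, limma called 147 genes higher (1.71%) and 18 lower (0.209%) in Dmt1Tg than in the knockouts, and 132 of the 147 were among the 1761 and 9 of the 18 among the 654. Over the 1761 genes the median log2 ratio was 0.06 in WT_Dmt1, -0.11 in Dmt1Tg, -0.26 in the knockouts and -0.39 in WT_plain. Over the 654 it was -0.03, 0.05, 0.15 and 0.25 in the same order. Since these genes were chosen by the contrast of the wild-type sets, that those sets lie at the ends follows from the choice. Of the other groups, Dmt1Tg lay nearer WT_Dmt1 than the knockouts did. With normexp the balance of calls between Dmt1Tg and the knockouts turned, to 24 higher and 57 lower. Genotype and scan day cannot be told apart between Dmt1Tg and the knockouts, and without Dmt1Tg 4 the calls in that comparison numbered 3, without Dmt1Tg 1 24, without Dmt1Tg 2 18 and without Dmt1Tg 3 99.

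Base composition of the probes touched mainly 1 array. On WT_Dmt1 1 the median log2 ratio was -0.30 at probes under 34% G and C, 0.95 at 42 to 46% and 1.51 above 46%. On WT_Dmt1 2, 3 and 4 it was 0.15 to 0.25 in the last 2 classes, and on WT_plain it was -0.23 to 0.05. Those 2 classes hold 581 and 159 of 161460 autosomal probes, so they weigh little in the counts. With each array centred within classes of probe composition, an alternative added after the data were seen, 1752 genes were higher and 599 lower.

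Of 2392 bins of 1 Mb, limma called 1421 (59.4%), 646 higher (27.0%) and 775 lower (32.4%) in WT_Dmt1. Every WT_Dmt1 array stood above every WT_plain array at 587 bins (24.5%), 561 of them called higher (23.5%), and below at 675 (28.2%), 640 of them called lower (26.8%). In the comparison of Dmt1Tg with the knockouts 314 bins were higher (13.1%) and 480 lower (20.1%) in Dmt1Tg. Of the 223 richest bins 205 (91.9%) were higher and 0 lower, and of the 115 without a gene name 97 (84.3%) were lower and 0 higher. The split of calls depended on the scaling: 737 were higher and 372 lower with normexp, and 428 and 343 with density classes centred. Over the bins, correlations were 0.89 to 0.94 between WT_plain arrays, 0.36 to 0.64 between WT_Dmt1 arrays and 0.13 to 0.72 between arrays of different sets. The top of the last range came from WT_Dmt1 4. It correlated at 0.72, 0.67 and 0.70 with WT_plain 1 to 3 and at 0.38, 0.57 and 0.46 with WT_Dmt1 1 to 3. For WT_Dmt1 1 to 3 the correlations with WT_plain arrays were 0.13 to 0.39. These correlations are a description over 2392 bins of shared probes.
The largest single bins were 2 neighbours on chromosome 10 (80000001 to 81000000 and 79000001 to 80000000, mm9), with 45 and 50 gene names. The first read 0.01, -0.18, -0.08 and -0.31 on WT_Dmt1 1 to 4 and -0.83, -1.09 and -1.10 on WT_plain 1 to 3. The sets differed by 0.87 (SE 0.09, limma adjusted p = 1.06e-06). Dmt1Tg arrays lay at -0.56 to -0.41 and knockout arrays at -0.93 to -0.45 there. The third was of another kind, with 4 probes and 2 gene names on chromosome 12 (20000001 to 21000000). The median G and C content of its probes lies in the high classes in which WT_Dmt1 1 stood far above the other arrays. It read 1.26, 0.63, 0.66 and 0.41 on WT_Dmt1 1 to 4 and 0.01, -0.05 and 0.08 on WT_plain 1 to 3 (difference 0.73, SE 0.12, limma adjusted p = 4.53e-05). With probe composition classes centred the sets overlapped, WT_Dmt1 1 read 0.00 and the call was lost (difference 0.17, SE 0.08, limma adjusted p = 0.0761). All 4 Dmt1Tg arrays were also high in it, at 0.25 to 0.58, and the 9 knockout arrays lay at -0.03 to 0.20.

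**Figure D3:**
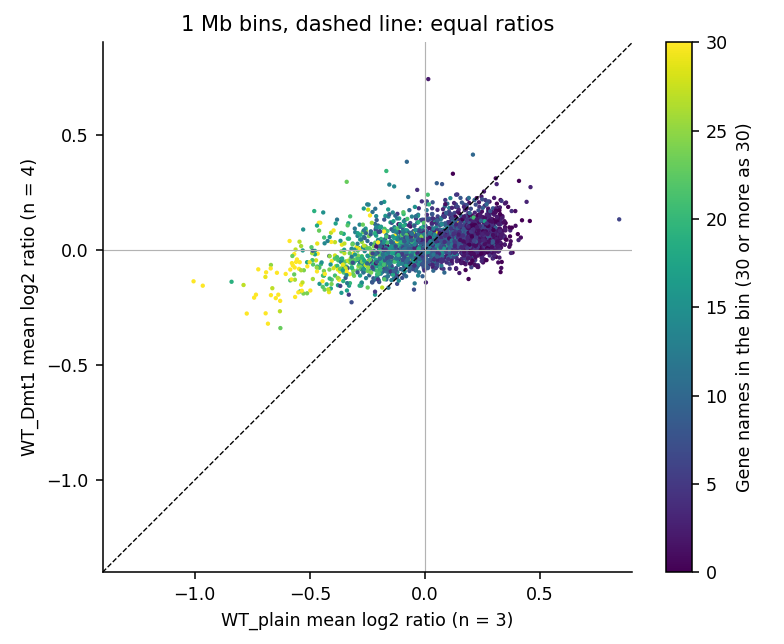
Mean log2 ratio of 2392 autosomal 1 Mb bins in WT_plain (horizontal axis, n = 3) and WT_Dmt1 (vertical axis, n = 4), coloured by the number of gene names in the bin, with a dashed line of equal ratios. Gene-rich bins lie above the line and gene-poor bins below it; single bins apart from the cloud are the chromosome 12 bin at 0.01 and 0.74 and the Skint bin at 0.84 and 0.13 (WT_plain and WT_Dmt1).

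The longest runs of called bins were stretches rich or poor in genes. The 3 longest higher runs lay on chromosome 5 (110000001 to 126000000, 16 bins), chromosome 15 (72000001 to 87000000, 15 bins) and chromosome 4 (128000001 to 142000000, 14 bins), with 267, 276 and 297 gene names. The run on chromosome 5 read 0.12, 0.26, 0.07 and -0.01 on WT_Dmt1 1 to 4 and -0.23, -0.30 and -0.36 on WT_plain 1 to 3. It holds Taok3 and Ksr2, a scaffold of the Ras pathway that was 0.32 higher (SE 0.07, limma adjusted p = 0.00234), and Ttc28, which was not called (0.08, limma adjusted p = 0.384). WT_Dmt1 2 was the highest of the 7 arrays in the runs of chromosomes 5 and 15 and carries gains of its own there. In the run on chromosome 4, with Col16a1, Eif4g3 and Igsf21, WT_Dmt1 stood at -0.04 ± 0.10 (SD, n = 4) and WT_plain at -0.46 ± 0.08 (SD, n = 3).
The 3 longest lower runs lay on chromosome 16 (58000001 to 76000000, 18 bins), chromosome 14 (105000001 to 118000000, 13 bins) and chromosome 13 (79000001 to 91000000, 12 bins), with 56, 20 and 33 gene names. On chromosome 16 WT_Dmt1 read 0.00, -0.01, -0.02 and 0.08 and WT_plain 0.21, 0.17 and 0.23. This run holds Cadm2, an adhesion gene that differed by -0.28 (SE 0.06, limma adjusted p = 0.00243), the ephrin receptor gene Epha6 (-0.20, limma adjusted p = 0.00721) and the axon guidance gene Robo2 (-0.17, limma adjusted p = 0.04). In the run on chromosome 14 the glypican genes Gpc5 and Gpc6 differed by -0.23 and -0.21. With density classes centred, none of these 5 genes was called.

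The Skint genes on chromosome 4 encode butyrophilin-like proteins, and are a stretch of a different kind. Skint6, with 42 probes, read 0.02, 0.06, 0.08 and 0.07 on WT_Dmt1 1 to 4 and 0.90, 0.89 and 0.99 on WT_plain 1 to 3. The sets differed by -0.87 (SE 0.08, limma adjusted p = 1.09e-05). Skint3, whose probe is shown above, read 0.00, 0.01, -0.01 and -0.16 on WT_Dmt1 1 to 4 and 1.30, 0.84 and 1.30 on WT_plain 1 to 3 (difference -1.19, SE 0.17, limma adjusted p = 0.000168). Skint4, Skint9 and Skint5 differed by -0.94, -0.88 and -0.51 (limma adjusted p = 0.00016, 0.000339 and 0.000414). At each of these 5 genes the sets did not overlap. Over all genes, every WT_Dmt1 array stood below every WT_plain array at 10.3%. For Skint3, non-overlap was part of the rule that chose it. Skint10, Skint8 and Skint2 were not called (differences -0.09, -0.15 and -0.16). Skint1, Skint7 and Skint11 had fewer than 3 probes left on some array and were not tested. Their sets overlapped, at differences of 0.21, -0.10 and 0.31. Skint5, Skint6, Skint8, Skint10, Skint2, Skint1, Skint7 and Skint11 fall outside the rule for named genes and were chosen after their values were seen. The separation at Skint5 and Skint6 is thus a description only. The list of loci taken to vary in copy between mouse lines holds the Skint genes because earlier results of these data showed them. Of its 15 genes tested, 2 were higher and 6 lower (median -0.16), beside 20.4% higher and 7.59% lower over all genes. The lower calls were Skint3, Skint4, Skint5, Skint6, Skint9 and Mmrn1. Those of the Skint genes follow in part from how the list was made.
From the first to the last Skint probe (mm9 chr4:111592906-113876179, 150 probes) the mean was 0.11 ± 0.07 (SD, n = 4) in WT_Dmt1 and 0.72 ± 0.05 (SD, n = 3) in WT_plain. In the 1.5 Mb before it the sets stood at 0.05 ± 0.03 and 0.18 ± 0.04, and in the 1.5 Mb after it at 0.00 ± 0.08 and -0.25 ± 0.02. The high ratio of WT_plain was thus bounded on each side. In its core (chr4:111742887-112147017) WT_plain read 1.12, 1.02 and 1.28 and WT_Dmt1 0.17, 0.26, 0.25 and 0.07. The 4 Dmt1Tg arrays lay at 0.02 to 0.16 and the 9 knockout arrays at -0.47 to 0.30, so no array of another group reached the WT_plain values. MutyhKO 1, on the slide of WT_plain, read -0.17.

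**Figure D4:**
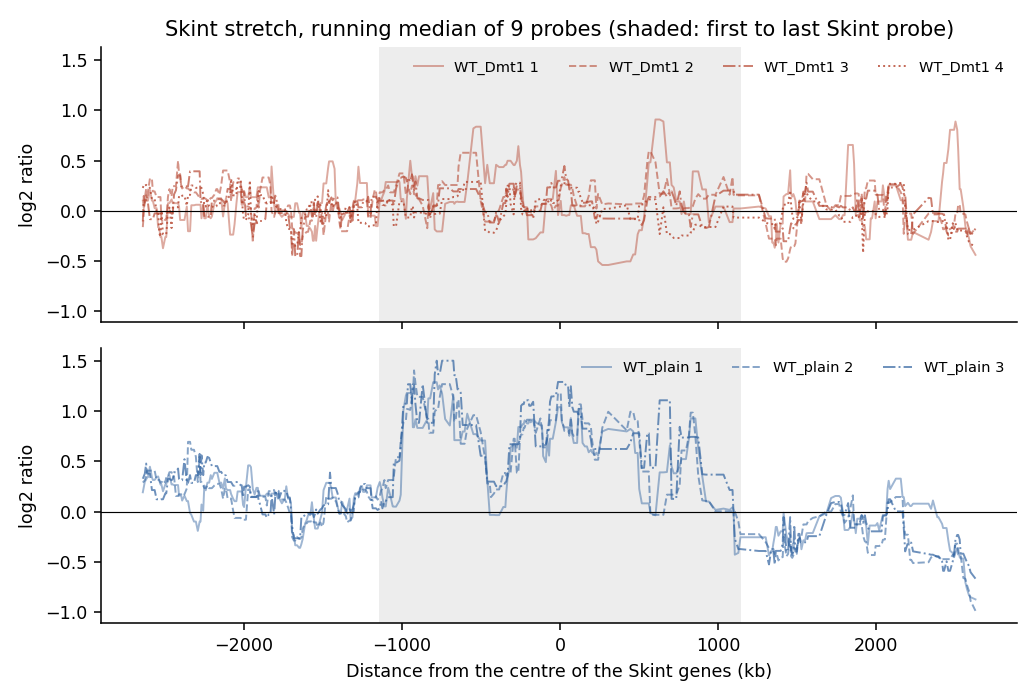
Log2 ratio, tumour over kidney, along the Skint stretch of chromosome 4 as the running median of 9 probes, against distance in kb from the centre of the Skint genes, 1 line per array, with the WT_Dmt1 arrays in the upper panel and the WT_plain arrays in the lower panel. Inside the shaded span the WT_plain arrays average 0.67, 0.72 and 0.77 and the WT_Dmt1 arrays 0.00 to 0.15, while outside it the WT_plain lines return to between -0.27 and 0.23 on average.

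On chromosome 14 a short stretch differed between arrays within WT_plain as well. It runs from 69876584 to 70090608 (mm9) over Slc25a37, the mitochondrial iron importer mitoferrin, Entpd4, a nucleotide hydrolase, and Loxl2, which crosslinks collagen. These borders are those of segments of WT_plain 1 and 2, picked for their extreme means. That WT_plain 1 and 2 are low there thus follows in part from the choice. The mean of the stretch was -0.13, -0.19, -0.15 and -0.25 on WT_Dmt1 1 to 4 and -1.29, -1.32 and -0.57 on WT_plain 1 to 3. Loxl2 read 0.09, 0.06, 0.02 and 0.07 on WT_Dmt1 1 to 4 and -1.13, -1.10 and -0.37 on WT_plain 1 to 3 (difference 0.92, SE 0.33, limma adjusted p = 0.0427). Slc25a37 differed by 0.64 (SE 0.22, limma adjusted p = 0.0363). Both calls were lost without WT_plain 1 (0.79 and 0.54) or WT_plain 2 (0.81 and 0.55) and without WT_Dmt1 1, 2 or 3, and that of Loxl2 also without WT_Dmt1 4. In the other groups the stretch stood at -0.31 to -0.16 in Dmt1Tg and ran from -1.23 to 0.81 over the knockouts.

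Further short stretches were low on all arrays. They were picked for the most extreme segment means of the 7 arrays, and each came from a WT_plain array, so that WT_plain is low and apart in them follows from the choice. On chromosome 17, from 56383840 to 56468800 (mm9), with Plin3, a lipid droplet gene, and Uhrf1, which maintains DNA methylation, the mean was -0.33, -0.40, -0.34 and -0.67 on WT_Dmt1 1 to 4 and -1.58, -1.57 and -1.65 on WT_plain 1 to 3. On chromosome 9, from 107430297 to 107541672 with Rassf1 and Gnai2, WT_Dmt1 stood at -0.58 to -0.45 and WT_plain at -1.48 to -1.22. Each set was below 0 at both stretches. On chromosome 7, from 31316157 to 31421778, the sets stood at -0.93 to -0.53 and -1.34 to -1.13. Its gene Kmt2b, a histone methyltransferase, was 0.79 higher in WT_Dmt1 (SE 0.14, limma adjusted p = 0.000712), and Kdm4b, a histone demethylase gene at the edge of the chromosome 17 stretch, 0.55 (SE 0.10, limma adjusted p = 0.000953). On chromosome 8, from 73124129 to 73421697 with Pde4c and Kcnn1, they stood at -0.61 to -0.13 and -1.31 to -1.04, and Ogg1KO 1 at -1.17. Pde4c itself, with 3 probes, was not called (0.31, SE 0.15, limma adjusted p = 0.118).

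Segmentation gave the share of each autosomal genome called altered, with segments at or beyond 0.2 from 0. The altered share was 0.43%, 5.63%, 0.29% and 4.61% on WT_Dmt1 1 to 4 and 20.04%, 37.42% and 35.35% on WT_plain 1 to 3. The sets did not overlap, and the difference was -28.19 percentage points (exact permutation p = 0.0571, two-sided, the smallest that the 35 splits of 4 against 3 allow, so no share could pass 0.05). The lost share was 0.00%, 0.75%, 0.21% and 4.59% on WT_Dmt1 and 14.33%, 22.36% and 19.91% on WT_plain. The gained share was 0.43%, 4.89%, 0.08% and 0.02% on WT_Dmt1 and 5.71%, 15.06% and 15.44% on WT_plain. Breakpoints numbered 7, 26, 8 and 97 on WT_Dmt1 and 353, 919 and 629 on WT_plain. Each of these gave the same exact permutation p of 0.0571.
The penalty for a new segment grows with the noise of an array, and the noise ranges of the sets are given above. With 1 penalty common to all arrays the altered share differed by -24.43 percentage points and breakpoints by -348.92. With density classes centred they differed by -11.69 and -450.33. The gained share turned to 0.21 percentage points higher in WT_Dmt1 with normexp (exact permutation p = 1).

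**Figure D5:**
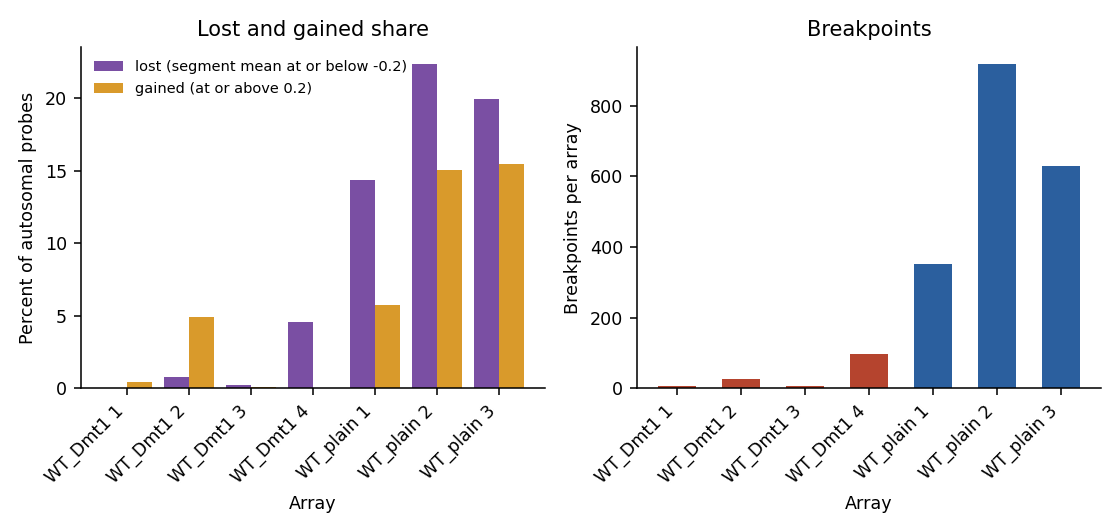
Percent of autosomal probes in segments called lost (purple) or gained (orange), left, and number of breakpoints, right, for each of the 4 WT_Dmt1 and 3 WT_plain arrays; bars are single arrays and carry no error. The lost share is at most 4.59% on WT_Dmt1 arrays and at least 14.33% on WT_plain arrays, and breakpoints are at most 97 and at least 353.

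Other events stood out in 1 wild-type tumour each. In WT_Dmt1 2 chromosome 15 was raised except at its end, with a median of 0.31. WT_Dmt1 1 and 3 stood at 0.00 and -0.01, WT_Dmt1 4 at 0.11 and WT_plain at 0.00 to 0.03. The end, from 103087330 to 103460314, stood at -0.20 in WT_Dmt1 2, where the other 19 arrays averaged -0.17. On that chromosome 113 of 332 genes (34%) were called higher, the largest share of the 19 autosomes, beside 20.4% over all genes. Chromosome 11 came next, with 163 of 565 genes (28.8%), and its median in WT_Dmt1 2 was -0.03. The part of WT_Dmt1 2 in the share of chromosome 15 was not tested. The same tumour was raised on chromosome 5 from 112922388 to 115006830, at 0.68, where the other 19 arrays averaged -0.04. The next stretch, from 115013610 to 121820775, stood at 0.34, and a further one from 140305545 to 146923536 at 0.33, where the other 19 arrays averaged -0.12 and -0.04. The first of these holds Ung, the uracil glycosylase gene, and Acacb, a fatty acid synthesis gene.
In WT_plain 2 a deep loss lay on chromosome 4 from 88341964 to 89363059, with Mtap, an enzyme of methionine salvage, and Cdkn2a, the gene of the cell cycle inhibitors p16 and Arf. Its mean was -1.35 over 63 probes, and the other 19 arrays lay between -0.06 and 0.07. Cdkn2a, with 2 probes, read -0.58, -0.14, 0.08 and -0.27 on WT_Dmt1 1 to 4 and 0.13, -1.78 and 0.02 on WT_plain 1 to 3. Mtap differed between the sets by 0.52 (SE 0.21, limma adjusted p = 0.0714) and was at -1.22 in WT_plain 2 alone. The loss went on to 94063546, with a mean of -1.13 over the whole span from 88341964. The same tumour stood at -0.40 on chromosome 9 from 9831189 to 14610961, with the Hippo gene Amotl1 and the repair gene Mre11a, where the other arrays ran from 0.01 to 0.35. This stretch and the longer one on chromosome 4 were chosen after their values were seen.
WT_Dmt1 1 was raised on chromosome 9 from 3046525 to 13490957, at 0.26, over Yap1, Birc2 and Birc3, the last 2 being inhibitors of cell death. The other 6 wild-type arrays stood at -0.02 to 0.18 there, and Dmt1Tg 4 at 0.43. On the same array, which also stood far above the others at probes rich in G and C, 3 short stretches were called gained. The part of probe composition in them was not tested. They hold the guanylate-binding protein genes Gbp4, Gbp8 and Gbp9 on chromosome 5 (105446345 to 105693857, mean 1.25), kallikrein genes around Klk1 on chromosome 7 (51276046 to 51482589, mean 1.25) and Oog3 and Pramel15 on chromosome 4 (143319842 to 143966098, mean 1.11). The other 19 arrays reached at most 0.48, 0.39 and 0.53 in them. At the Klk1 stretch the sets did not overlap, with 0.29 to 1.25 on WT_Dmt1 and -0.18 to -0.09 on WT_plain arrays. Over all genes, every WT_Dmt1 array stood above every WT_plain array at 22.4%. The stretch was picked because it was called on WT_Dmt1 1, so that this array is high in it follows from the choice.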

How the data were processed

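DNA of 20 crocidolite-induced mesotheliomas was hybridised with kidney DNA on 2-colour Agilent arrays, 1 array per tumour. The deposited scanner files hold, per the file headers, a log10 ratio of red over green with background-subtracted, dye-normalised signals (Feature Extraction 10.7.1.1, protocol CGH_107_Sep09, mm9). Feature Extraction 10.7 is named in the submitters' processing notes. They also hold the intensity of each channel, used by the authors' software to make the ratio. The deposited series table of the authors holds the same ratios on the log2 scale, within 4.64e-07.

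Control spots and outlier flags were left out, as were patches where the median of 21 by 21 spots lay over 0.5 from the array median. Ratios were turned to log2 and centred on the autosomal median, with spots of 1 probe averaged. Genes with at least 3 probes on every array and 1 Mb bins were fitted with limma 3.58.1 in R 4.3.3, over all 20 arrays in 6 groups with a shared spread, adjusted by Benjamini-Hochberg at 0.05. Gene names were updated through RefSeq for 1546 of 21138 names, 13683 were current and 5909 were kept as deposited. Segments of at least 5 probes used a penalty of 40 and a threshold of 0.2. Shares were compared by two-sided exact permutation. Python 3.11.15 was used. The fits and the segmentation were tested on simulated data.

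Named were the 8 largest called genes per direction with at least 5 probes, sets that did not overlap and at most 1 per chromosome; up to 4 called members per list; all measured tumour suppressors and engineered genes; up to 3 genes in each of the 3 longest bin runs per direction; and genes in up to 8 segments under 5 Mb of at least 10 probes. Some genes that this rule names are not reported here and are left out of the counts of named genes across alternatives; counts over gene lists include them. The sets to compare and the lists were chosen with earlier results of these data known. The number of arrays limits the precision. No genome sequence or exon annotation of mm9 was used here, so exons and introns are not given. Alternatives covered patches, centring, background, probe minimum, blocks, weights, segmentation and left-out arrays.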

Additional observations from a re-analysis of the deposited data

Results flagged for a closer look

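In 16 of 115 sets of 4 WT_Dmt1 values, 1 array stood apart from the other 3 by Dixon's criterion, where chance gives about 1 in 20. WT_plain, with 3 arrays, could not be examined in this way. The causes were not tested.

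WT_Dmt1 4 stood apart at Skint3 (-0.16, the others -0.01 to 0.01), Mtap (0.34), Lrp1b (0.13), Col26a1 (0.22, the others 0.64 to 0.67), Hdac5 (-0.09) and Gpc6 (0.09), and in the share lost (4.59%, the others at most 0.75%). WT_Dmt1 2 stood apart at Camk2a (0.73) and Taok3 (0.45, the others 0.14 to 0.17), in the share gained (4.89%, the others at most 0.43%) and in the medians of chromosome 5 (0.09) and chromosome 16 (-0.05). WT_Dmt1 1 stood apart at Yap1 (0.88, the others 0.16 to 0.27) and Lrrc4c (-0.23), and WT_Dmt1 3 at Tbc1d22a (0.06) and Gpc5 (-0.07).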

How the results depend on the processing

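The count of called genes (2415) was 1505 with wild-type arrays alone, 5146 with at least 1 probe, 1572 with at least 5, and 634 with WT_plain 3 as the only array of its set, an alternative added after the data were seen, as were widened patches and centring by probe composition or gene density. Leaving out 1 array gave 1504 to 2571 genes and 1197 to 1440 bins. Of the calls 72.9% were higher, and 84.8% with patch spots kept and 82.8% with normexp. Bins called numbered 771 with density classes centred. Genes called between Dmt1Tg and the knockouts (165) numbered 90 with patch spots kept, 50 centred on the mode, 81 with normexp (24 higher, 57 lower), 368 at bright kidney probes, 53 with density classes centred, 16 with slide as a random block, 1383 with array weights, 5 with probe medians and 3 to 99 without 1 Dmt1Tg array; no knockout array was left out. The replicate numbers did not pair the arrays (correlations of same-numbered arrays -0.05, 0.02 and -0.04), and with the replicate block 2242 genes were called, 54 in the second comparison. Without 1 array the altered share differed by -33.64 to -24.95 percentage points, the lost share by -19.75 to -15.73, the gained share by -13.9 to -9.03 and breakpoints by -739.5 to -456.5. The gained share turned to 0.21 with normexp.

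Of 68 called named genes 16 kept their call under all 25 alternatives in which they could be fitted, 48 lost it at least once and 4 turned sign. Signs turned with density classes centred at Nf2 (-0.25), Rb1 (-0.01), Tsc1 (-0.04), Tsc2 (-0.18), Fhit (0.08), Robo2 (0.00) and Adgrv1 (0.00), with normexp at Setd2 (0.08), Tsc1 (-0.05) and Wrn (0.01), and with patch spots kept at Nf1 (0.04), Wrn (0.30) and Xrcc4 (0.00). They turned with probe medians at Nf2 (-0.03), Rb1 (-0.14) and Wt1 (0.02), with bright kidney probes at Rb1 (-0.08), Wt1 (0.03) and Rad50 (0.01), with array weights at Rb1 (-0.05) and Tsc2 (-0.02), and for Rb1 also with WT_plain 3 alone (-0.10), patch probes out on all arrays (-0.01) and the replicate block (-0.03). Without 1 array the differences ran across 0 at Nf2 (-0.05 to 0.13), Rb1 (-0.07 to 0.06), Tsc2 (-0.03 to 0.30) and Wt1 (-0.10 to 0.03). The causes were not tested.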
